A study of Homo sapiens with 8 samples.

Results

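LX2 is an established human line of hepatic stellate cells, the liver cells that store vitamin A and lay down scar matrix after injury. The data described here are the 4 LX2 arrays of a series of 8: 2 arrays of LX2 treated with CM272 at 400 nM for 48 h, and 2 arrays of LX2 given the vehicle, 0.1% DMSO, for the same time. They were chosen by their labelled line and treatment. Both LX2 groups were kept in 2% fetal bovine serum at 200000 cells per well, with no genetic alteration named in the labels. The other 4 arrays are HepG2, a hepatocellular carcinoma line, with and without CM272 in 10% serum, and they enter only the shared estimate of spread and the comparison of the drug's effect between the lines. LX2 is 1 immortalised line, so the arrays say nothing of how donors differ. Whether the 2 arrays of each group come from separate cultures is not in the labels, and p-values therefore reflect the spread of these arrays alone, which may be technical.

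CM272 inhibits both G9a, encoded by EHMT2, and DNMT1. G9a, with its partner GLP from EHMT1, methylates histone H3 at lysine 9, a mark of silent chromatin, and DNMT1 copies DNA methylation onto new strands at replication. Genes held silent by either mark can be transcribed again when the enzymes are blocked. Stellate cells respond to serum and injury signals through immediate-early transcription factors, TGF-beta, Notch and vasoactive peptides. These pathways are among those described below, and the gene lists were chosen with earlier results of these data known.

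Levels are log2 values from RMA, the standard normalization for these arrays, so a change of 1 is a 2-fold change. Array medians lay between 4.42 and 4.54 in LX2. Of 28 stellate cell markers 20 were named on the array, and 15 of these lay above log2 4 on all 4 LX2 arrays. On all HepG2 arrays 14 of the 20 lay above it, so this count does not separate the lines. VIM, an intermediate filament of mesenchymal cells, measured 10.16 and 10.22 in the control and 9.75 and 9.77 with CM272, a change of -0.43 that was not called (limma adjusted p = 0.0774). Of the 17 tested markers RELN (3.93), the filament protein DES (1.25) and IGFBP3 (0.68) were higher, and LOX, which crosslinks collagen, was lower (-1.01). Of all genes tested 3.79% were higher and 4.63% lower. The mean of the list was 5.51 and 5.49 in the control and 5.82 and 5.80 with CM272, and RELN, with by far the largest change, weighs on it. In the HepG2 control the list mean was 5.25 and 5.26, and RELN measured 11.03 and 11.12 there against 4.59 and 4.77 in the LX2 control. LOX lost its call without either control array, IGFBP3 without those or CM272 replicate 1, and DES without control replicate 2 or CM272 replicate 2. The small matrix proteoglycans DCN and LUM, which mark many stellate cells in tissue, lay below log2 4 on all 4 arrays. The collagen genes that define scar-forming stellate cells, COL1A1, COL1A2 and COL3A1, have no named probe set and were not analysed here. The 16 hepatocyte markers had a mean level of 3.91, 3.90, 4.17 and 4.02 on the LX2 arrays, against 10.68 to 11.03 on the HepG2 arrays.

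Single markers of other liver cells were called in LX2. CD14 of macrophages rose by 1.12, FLT1 of endothelium by 1.55, KRT19 of bile duct cells by 0.67 and HP of hepatocytes by 0.76. Each was the 1 called member of its list, which held 7, 8, 7 and 16 tested genes. Of all genes tested 8.42% were called. The mean level of the leukocyte list was 4.94 and 5.10 in the control and 5.30 and 5.08 with CM272, and that of the endothelial list 4.54 and 4.5 against 4.88 and 4.69. The mean of the cholangiocyte list was 5.03 and 5.10 in the control and 5.44 and 5.23 with CM272. The CD14 and KRT19 calls were lost without either control array, that of FLT1 without control replicate 2 and that of HP without each of the 4 arrays. Their part in the results below was not tested. The RNA of a whole culture of 1 line was measured, so a rise in a few cells and a rise in all cells cannot be told apart.

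CM272 changed 1031 of the 12239 genes tested, 8.42%, at a limma adjusted p under 0.05. Of these 464 were higher (3.79%) and 567 were lower (4.63%). Rises were fewer in this fit but reached further. At least 2-fold were 138 rises and 79 falls, and 44 rises and 7 falls exceeded log2 1.5. The median change was 0.80 among the higher genes, -0.75 among the lower genes and -0.02 over all genes tested. The CM272 arrays lay above both control arrays for 23.5% of all genes tested and below both for 28.6%, so arrays that do not overlap were common. With each array centred on its median, 338 genes were higher and 766 lower, which moved the share of rises among the calls from 45.0% to 30.6%. Quantile normalization over the 8 arrays gave 454 and 451 (50.2%), and a fit of the LX2 arrays alone gave 132 and 66 (66.7%). Which direction had more calls thus depended on the processing.

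**Figure D1:**
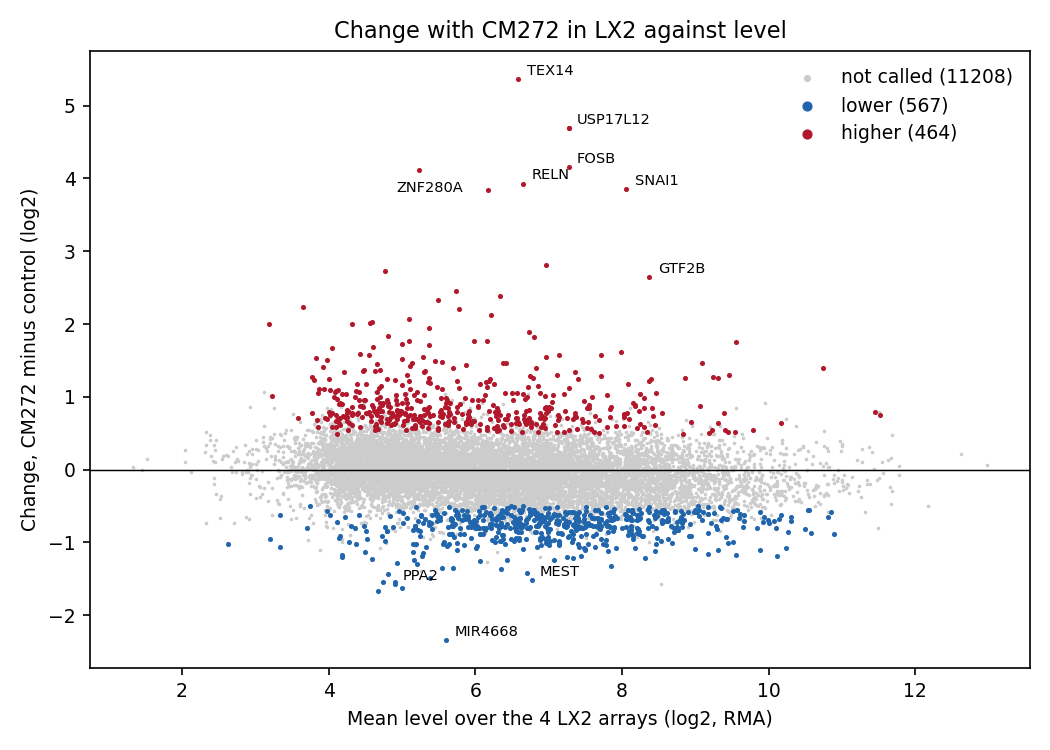
Change with CM272 in LX2 (log2, vertical axis) against the mean level over the 4 LX2 arrays (log2, horizontal axis) for 12239 genes, with 464 higher genes in red, 567 lower in blue and the others in grey. The rises above log2 2 number 21, while MIR4668 is the 1 fall beyond that size.

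The shares of rises and falls were also counted by level. Among genes at a mean level over 9, 8.37% were lower and 2.64% higher, whereas at a level of 4 to 5 the shares were 1.17% and 4.60%. The spread of values over probe sets was narrower with CM272, with an SD of 2.01 and 2.03 against 2.07 on both control arrays. After quantile normalization over the 8 arrays 6.17% of the genes over 9 were lower and 3.52% were higher, and at 4 to 5 the shares were 1.31% and 2.74%. Falls thus stayed more frequent at bright than at dim levels, while the order of the rises turned. The CM272 arrays also differed more from each other, by a median of 0.26 against 0.12 between the control arrays, and 183 genes lay more than 1 apart between them against 12.

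How many genes were called turned on single arrays. Leaving out control replicate 1 gave 82 higher and 16 lower genes, and leaving out control replicate 2 gave 51 and 5. Without CM272 replicate 1 there were 401 and 409, and without CM272 replicate 2 there were 906 and 1587. A fit of the LX2 arrays alone called 132 and 66. A group left with 1 array added nothing to the estimate of spread and was assumed to vary like the other groups. A lost call therefore need not mean a changed effect. Over the 4 leave-outs the change of PCDH17 ran from 1.27 to 1.29 and that of FGF2 from -1.09 to -1.07. That of LRRC37B ran from -2.18 to -0.79, and each of these genes lost the call without either control array. Called in the same direction without each of the 4 LX2 arrays were 48 genes, 44 higher and 4 lower, and these are named as stable calls below. Of the 185 called genes that are named or that a list put forward, 35 were stable. The others kept their sign under each alternative tried, but 127 lost the call without control replicate 1, 148 without control replicate 2, 58 without CM272 replicate 1 and 14 without CM272 replicate 2.

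The largest rise was that of TEX14, which keeps sister germ cells joined by cytoplasmic bridges. It measured 3.86 and 3.94 in the control and 9.07 and 9.47 with CM272, a rise of 5.37 (SE 0.23, limma adjusted p = 2.01e-06). Both control arrays lay under log2 4 and both treated arrays far above it. Genes next to TEX14 were higher too, a stretch noticed after the values were seen. In RefSeq order on chromosome 17 the 6 tested genes from SUPT4H1 to TEX14 held 5 higher genes, with MTMR4 between them at 0.17 and not called. Of all genes tested 3.79% were higher.

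The called genes of that stretch changed by different amounts. SUPT4H1, a subunit of the elongation factor DSIF, rose by 0.51, RNF43, a ubiquitin ligase for Wnt receptors, by 0.70, and HSF5, a heat shock factor of spermatocytes, by 1.58. SEPTIN4, a filament-forming GTPase, measured 5.13 and 5.16 in the control and 7.18 and 7.37 with CM272, a rise of 2.13 (SE 0.15). RAD51C beyond TEX14 changed by -0.01 and TRIM37 by -0.42, and neither passed. TEX14, SEPTIN4 and HSF5 were stable calls, RNF43 lost its call without either control array, while SUPT4H1 lost its call without either control array and without CM272 replicate 1.

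**Figure D2:**
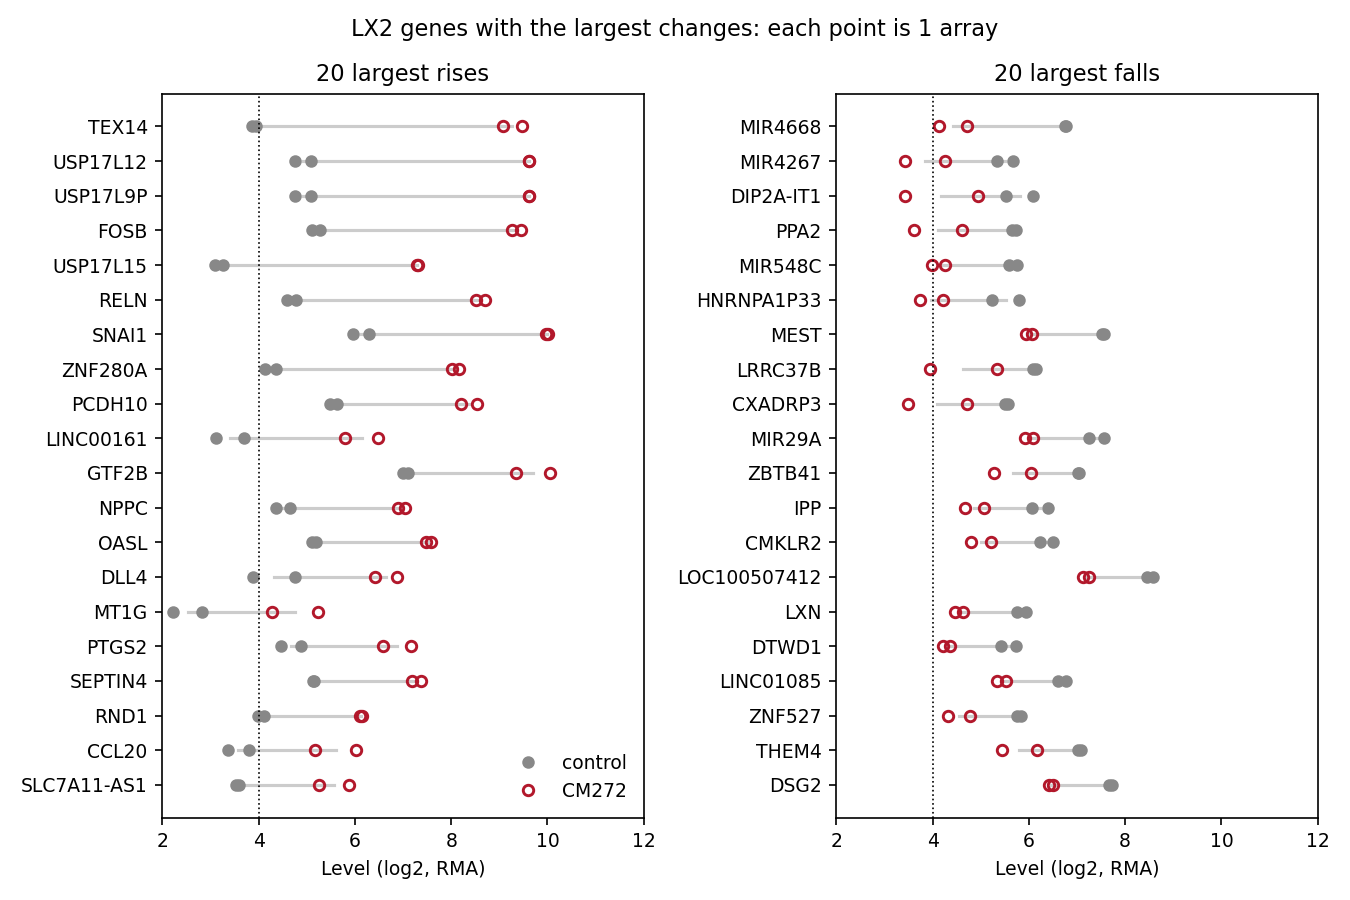
Levels (log2, horizontal axis) of the 20 genes with the largest rises and the 20 with the largest falls in LX2, with 1 point for each array, filled for control and open for CM272. The dotted line marks log2 4, and a line joins the group means. TEX14 goes from 3.86 and 3.94 to 9.07 and 9.47, while the falls start at brighter levels and end nearer log2 4, some with the 2 CM272 arrays over 1 apart.

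Genes of the USP17 family rose together. USP17L genes encode near-identical deubiquitinases in a tandem repeat, and they are known targets of DUX4, the transcription factor of cleavage-stage embryos. USP17L12 and USP17L9P share all their values, 5.09 and 4.76 in the control and 9.62 and 9.62 with CM272, a rise of 4.69 (SE 0.17). USP17L15 measured 3.26 and 3.10 against 7.31 and 7.28, and USP17L10 measured 4.47 and 4.31 against 6.21 and 6.46. All 4 named copies were higher, but probes of near-identical copies may read each other's transcripts, so the copies are not separate results.

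Of the 20 other tested DUX4 targets 10% were called, near the 8.42% of all genes. ZNF280A, a zinc finger gene, measured 4.36 and 4.14 in the control and 8.01 and 8.17 with CM272, a rise of 3.84 (SE 0.16). Of these 20 it was the 1 that rose, and CXADRP3, a pseudogene, was the 1 that fell (-1.43). Their median change was 0.08. ZSCAN4 of the cleavage-stage embryo changed by 0.26, LEUTX by -0.26 and KHDC1L by 0.53, none past the threshold. USP17L12, USP17L9P, USP17L15 and ZNF280A were stable calls, USP17L10 lost its call without control replicate 2, and CXADRP3 lost it without either control array or without CM272 replicate 1.

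Immediate-early transcription factors, which serum and stress switch on within minutes in resting cells, were measured after 48 h. Of 28 tested members 7 rose, 0 fell and 21 were not called, 25% against 8.42% of all genes, with a median change of 0.23 against -0.02. FOSB, a subunit of the AP-1 factor, measured 5.28 and 5.10 in the control and 9.44 and 9.26 with CM272. Its rise of 4.16 (SE 0.15, limma adjusted p = 7.39e-07) was far larger than the gaps between arrays of a group.

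The other AP-1 subunits split. ATF3, a stress-induced repressor, measured 5.53 and 5.02 against 6.79 and 7.29, a rise of 1.76 (SE 0.21). FOS rose by 1.14 (SE 0.16) and JUNB by 0.98 (SE 0.24), with JUNB at 9.18 on one CM272 array and 8.39 on the other. JUN changed by -0.22, JUND by -0.31, FOSL1 by -0.32 and FOSL2 by 0.07, none past the threshold.

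Of the zinc finger factors, EGR1 measured 8.72 and 8.63 in the control and 10.63 and 10.23 with CM272, a rise of 1.75 (SE 0.23). EGR4 rose by 1.48 (SE 0.23) and EGR3 by 1.06 (SE 0.21). MYC changed by -0.38, SRF by 0.50 and the 5 early regulators outside the transcription factors by between -0.08 and 0.35, none of them called. FOSB and ATF3 were stable calls. EGR1, EGR4 and FOS lost theirs without control replicate 2, EGR3 without that array or CM272 replicate 1, and JUNB without any 1 of the control arrays or CM272 replicate 1.

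Feedback genes of the MAP kinase pathway, which growth factor signalling induces to limit itself, were also counted. Of 19 tested members 2 rose and 0 fell, 10.5% against 8.42%, with a median of 0.26. These were EPHA4, a receptor for ephrins (1.25, SE 0.22), and the phosphatase DUSP5 (0.66, SE 0.16). DUSP6 changed by 0.33, DUSP1 by 0.19, SPRY4 by 0.37 and SPRY2 by -0.18, none called. EPHA4 lost its call without either control array, and DUSP5 without those or CM272 replicate 1.

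The promoters of the higher genes were searched for short elements. The TATA box is a short element near the start site that TBP binds, common in inducible and tissue-specific genes and rare in housekeeping genes. The letters TATAAA were searched on the gene's own strand, starting 40 to 20 bases before the RefSeq start, in the 9209 tested genes with a promoter in the RefSeq table (GRCh38.p14). They stood in 10.3% of 329 promoters of higher genes, 2.35% of all tested promoters and 1.09% of 459 promoters of lower genes. Among the rises of at least 2-fold the share was 20.9% of 91, and among the stable rises 34.6% of 26. The sequences below are the 60 bases before the start for a chosen part of the 34 higher genes that hold this element, with TATAAA in capitals.

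FOSB: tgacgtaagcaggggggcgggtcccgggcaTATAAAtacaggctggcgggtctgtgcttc
GTF2B: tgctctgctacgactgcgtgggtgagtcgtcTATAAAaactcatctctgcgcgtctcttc
NPPC: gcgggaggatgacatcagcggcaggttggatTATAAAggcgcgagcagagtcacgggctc
PTGS2: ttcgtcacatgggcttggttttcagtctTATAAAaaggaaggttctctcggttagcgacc
CCL20: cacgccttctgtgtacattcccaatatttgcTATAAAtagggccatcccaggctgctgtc
CXCR4: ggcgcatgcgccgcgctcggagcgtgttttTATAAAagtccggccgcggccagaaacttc
HEXIM1: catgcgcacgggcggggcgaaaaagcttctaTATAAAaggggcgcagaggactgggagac
BAIAP2: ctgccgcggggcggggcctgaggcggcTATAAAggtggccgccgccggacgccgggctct
ICAM1: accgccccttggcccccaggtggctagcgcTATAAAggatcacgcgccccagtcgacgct
FOS: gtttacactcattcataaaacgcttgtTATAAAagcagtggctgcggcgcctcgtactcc
JUNB: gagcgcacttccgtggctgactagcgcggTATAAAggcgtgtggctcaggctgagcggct

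In these promoters the element starts between 29 and 33 bases before the start site. The search window of 40 to 20 bases set the bounds of this place beforehand. The FOSB stretch lies on chr19:45467936-45467995, that of GTF2B on chr1:88891568-88891627 and that of HEXIM1 on chr17:45148415-45148474, on the plus, minus and plus strand of GRCh38.p14. A match is a description of letters, not evidence of binding.

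The share was also counted by the level of the gene. At a mean level over 7 the element stood in 19.2% of 73 promoters of higher genes, 1.59% of all 3143 and 1.23% of 244 promoters of lower genes. At a level under 5 it stood in 10% of the higher and 4.58% of all. Other motifs were searched on both strands of the whole window, 250 bases before to 50 after the start. The cAMP response element TGACGTCA stood in 4.26% of the higher, 2.4% of the lower and 2.85% of all tested promoters, and in none of the 6 immediate-early genes that rose and have a promoter in the table. The AP-1 site TGANTCA stood in 5.78% of the higher, 4.14% of the lower and 5.22% of all tested. The EGR core GCGNGGGCG stood in 13.1% of the higher, 20.3% of the lower and 14.6% of all tested. Over all 27305 promoters in the table these shares were 1.98%, 7.76% and 9.28%, and no match says only that these letters are not in this window.

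**Figure D3:**
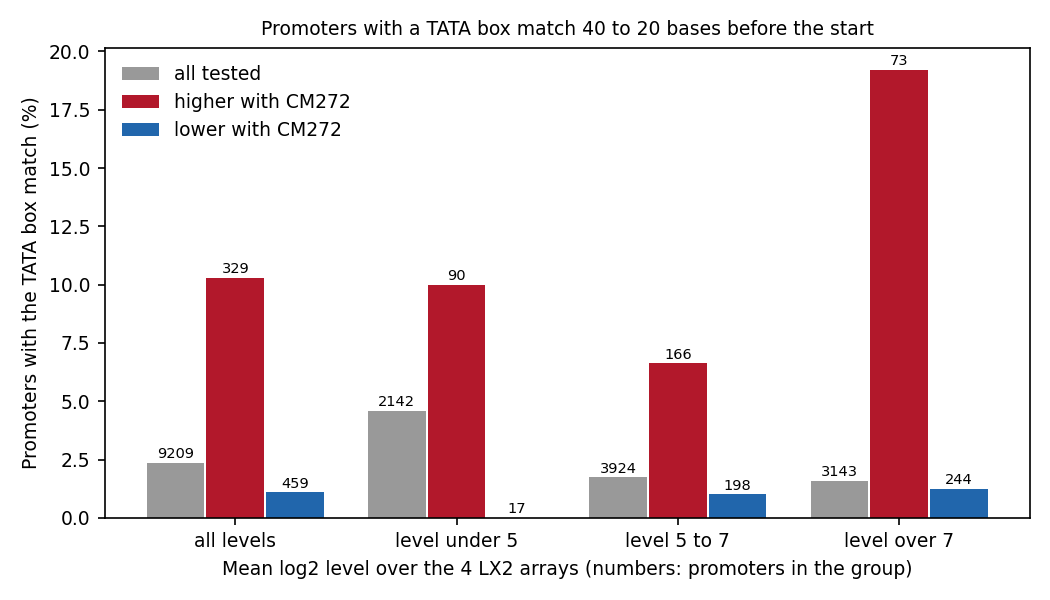
Share of promoters with TATAAA starting 40 to 20 bases before the start site (percent, vertical axis), for all tested genes, higher genes and lower genes, over all levels and in 3 ranges of the mean log2 level in LX2. The number over each bar is the number of promoters in that group. The red bar is the tallest in each range, from 6.63% at levels of 5 to 7 up to 19.2% over 7.

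Of the genes that start and pace RNA polymerase II some were higher. Of 26 tested members 5 rose and 0 fell, 19.2% against 8.42%, although their median change was 0.09. GTF2B, the general factor TFIIB that joins polymerase to the promoter, measured 7.0 and 7.10 in the control and 9.34 and 10.05 with CM272, a rise of 2.64 (SE 0.21, limma adjusted p = 3.02e-04). The other 4 tested general factors, TBP, CDK7, CCNH and TBPL1, changed by between -0.14 and -0.09 and were not called.

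HEXIM1, which with 7SK RNA holds the elongation kinase P-TEFb inactive, measured 7.19 and 7.16 in the control and 8.69 and 8.90 with CM272, a rise of 1.62 (SE 0.14). MEPCE, which caps 7SK RNA, rose by 0.87 (SE 0.17), ELL, an elongation factor, by 0.62 (SE 0.16), and SUPT4H1 by 0.51 (SE 0.13). The kinase's own subunits were not called, with CDK9 at 0.05, CCNT1 at 0.24 and CCNT2 at -0.25. BRD2 changed by -0.05 and BRD3 by -0.06, also not called. GTF2B and HEXIM1 were stable calls, MEPCE lost its call without either control array, and ELL and SUPT4H1 lost theirs without either control array or CM272 replicate 1.

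SNAI1, a repressor of epithelial genes in epithelial-mesenchymal transition, measured 6.30 and 5.96 in the control and 10.01 and 9.97 with CM272, a rise of 3.86 (SE 0.15, limma adjusted p = 1.35e-06). Of 27 tested genes of that transition 2 were called, 7.41%, near the 8.42% of all genes, and SNAI1 was 1 of 16 transcription factors among them. SNAI2, its close relative in mesenchymal cells, changed by -0.62 without passing (limma adjusted p = 0.0535), TWIST1 by 0.26 and ZEB1 by -0.01. The other call was CLDN1, a tight junction claudin and 1 of 11 junction genes, which rose by 1.22 (SE 0.24). SNAI1 was a stable call and CLDN1 lost its call without either control array.

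RELN, a secreted glycoprotein made by quiescent stellate cells and by neurons, rose by 3.93 (SE 0.14), from 4.59 and 4.77 to 8.71 and 8.52. Protocadherins, which mediate contact between like cells, had 4 of 21 tested members higher and 0 lower, 19.0% against 8.42%, with a median of -0.06. PCDH10 measured 5.62 and 5.49 against 8.20 and 8.54, a rise of 2.81 (SE 0.18). PCDH17 rose by 1.28 (SE 0.19), PCDH18 by 1.17 (SE 0.17) and PCDH9 by 0.67 (SE 0.13), while the clustered beta protocadherins ran from -1.11 for PCDHB13 to 0.61 for PCDHB9, none called. PCDH10 and PCDH18 are followed in RefSeq order on chromosome 4 by SLC7A11-AS1 (2.01) and NOCT (0.80), and those 4 tested genes in a row were higher, a run noticed after the values were seen. RELN, PCDH10 and SLC7A11-AS1 were stable calls, PCDH17, PCDH18 and PCDH9 lost theirs without either control array, and NOCT without those or CM272 replicate 1.

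Among secreted signals several rose, most of them vasoactive and peptide hormones. Of 69 tested members 10 rose and 1 fell, 15.9% against 8.42%, with a median of 0.18. Of the 16 vasoactive and peptide hormones 6 rose and 0 fell, with a median of 0.47. NPPC, C-type natriuretic peptide, which relaxes contractile cells through cyclic GMP, measured 4.65 and 4.36 in the control and 7.05 and 6.89 with CM272, a rise of 2.46 (SE 0.19, limma adjusted p = 2.49e-04).

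STC1, a glycoprotein hormone of mineral balance, measured 9.99 and 10.11 in the control and 11.60 and 11.28 with CM272, a rise of 1.39 (SE 0.15). Adrenomedullin, ADM, rose by 0.93 (SE 0.16) and apelin, APLN, by 0.87 (SE 0.15), both vasodilators. The granins SCG2 and SCG5, named after their values were seen, rose by 0.86 and 0.76. The endothelins EDN1, EDN2 and EDN3, which contract stellate cells, changed by 0.10, 0.22 and 0.21 and were not called.

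Other signals were called singly. DKK2, a Wnt antagonist, measured 3.21 and 3.20 in the control and 4.77 and 4.98 with CM272, a rise of 1.67 (SE 0.16), and BAMBI, a decoy receptor for TGF-beta that activated stellate cells lose, rose by 0.96 (SE 0.14). Epiregulin, EREG, rose by 1.11 (SE 0.28) and FGF18 by 0.74 (SE 0.13). FGF2, a mitogen of fibroblasts, measured 10.77 and 10.79 against 9.70 and 9.69 and fell by 1.08 (SE 0.15). None of 15 ligands of the BMP and TGF-beta family was called, with BMP6 at 0.59 and BMP4 at 0.47. NPPC, STC1 and DKK2 were stable calls, EREG lost its call without each of the 4 LX2 arrays, and ADM, APLN, BAMBI, FGF18, FGF2 and SCG2 lost theirs without either control array. SCG5 lost its call without those or CM272 replicate 1.

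Chemokine ligands, which draw leukocytes into tissue, had 5 of 31 tested members higher and 1 lower, 19.4% against 8.42%, with a median of 0.21. CCL20 measured 3.36 and 3.79 in the control and 5.18 and 6.03 with CM272, a rise of 2.03 (SE 0.26) and a stable call. CCL5 rose by 1.15 (SE 0.16), CXCL11 by 1.04 (SE 0.23) and CCL1 by 0.95 (SE 0.25), and CXCL6 fell by 0.72 (SE 0.14). CCL2, a leading chemokine of activated stellate cells, changed by -0.34 with an SE of 0.38, and CXCL8 by -0.09, neither called. PTGS2, the inducible cyclooxygenase, measured 4.46 and 4.87 against 6.59 and 7.16, and OASL, an interferon-induced protein, 5.19 and 5.10 against 7.58 and 7.47. Both were stable calls, with rises of 2.21 and 2.38. CCL5 lost its call without control replicate 2, CXCL6 without either control array, CXCL11 without those or CM272 replicate 2, and CCL1 without each of the 4 LX2 arrays.

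In the Notch pathway, in which a ligand on one cell activates a receptor on its neighbour, most calls were ligands. Of 5 tested ligands 3 rose, of 4 receptors 0 were called, and of 22 targets and modulators 1 rose. DLL4, a ligand best known from sprouting vessels, measured 4.75 and 3.89 in the control and 6.88 and 6.42 with CM272, a rise of 2.33 (SE 0.26, limma adjusted p = 0.00256). DLL1 rose by 0.77 (SE 0.17) and JAG2 by 0.55 (SE 0.14), and JAG1 changed by -0.12.

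The 4 receptors changed by between -0.18 for NOTCH2 and 0.01 for NOTCH1. HES7, a target of Notch, rose by 0.75 (SE 0.14), while HEY1 changed by 0.45, HES4 by -0.07 and NRARP by 0.00, not called. Over the whole list 4 of 31 members rose, 12.9% against 8.42%, with a median of 0.11. DLL4 was a stable call, HES7 lost its call without either control array, and DLL1 and JAG2 lost theirs without either control array or CM272 replicate 1.

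In the BMP and TGF-beta pathway 0 of 18 tested members rose and 2 fell, 11.1% against 8.42%, with a median of -0.20. SMURF2, a ubiquitin ligase for SMADs, fell by 0.82 (SE 0.17), and SMAD2, a transducer of TGF-beta, measured 9.33 and 9.28 against 8.74 and 8.71 and fell by 0.58 (SE 0.13). SMAD4 changed by -0.46, SMAD7 by -0.54 and SKIL by -0.52 without passing. The CM272 arrays lay below both control arrays for 10 of the 18 and above both for 1, beside 28.6% and 23.5% of all genes tested. SMAD2 lost its call without either control array, and SMURF2 without those or CM272 replicate 1.

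**Figure D4:**
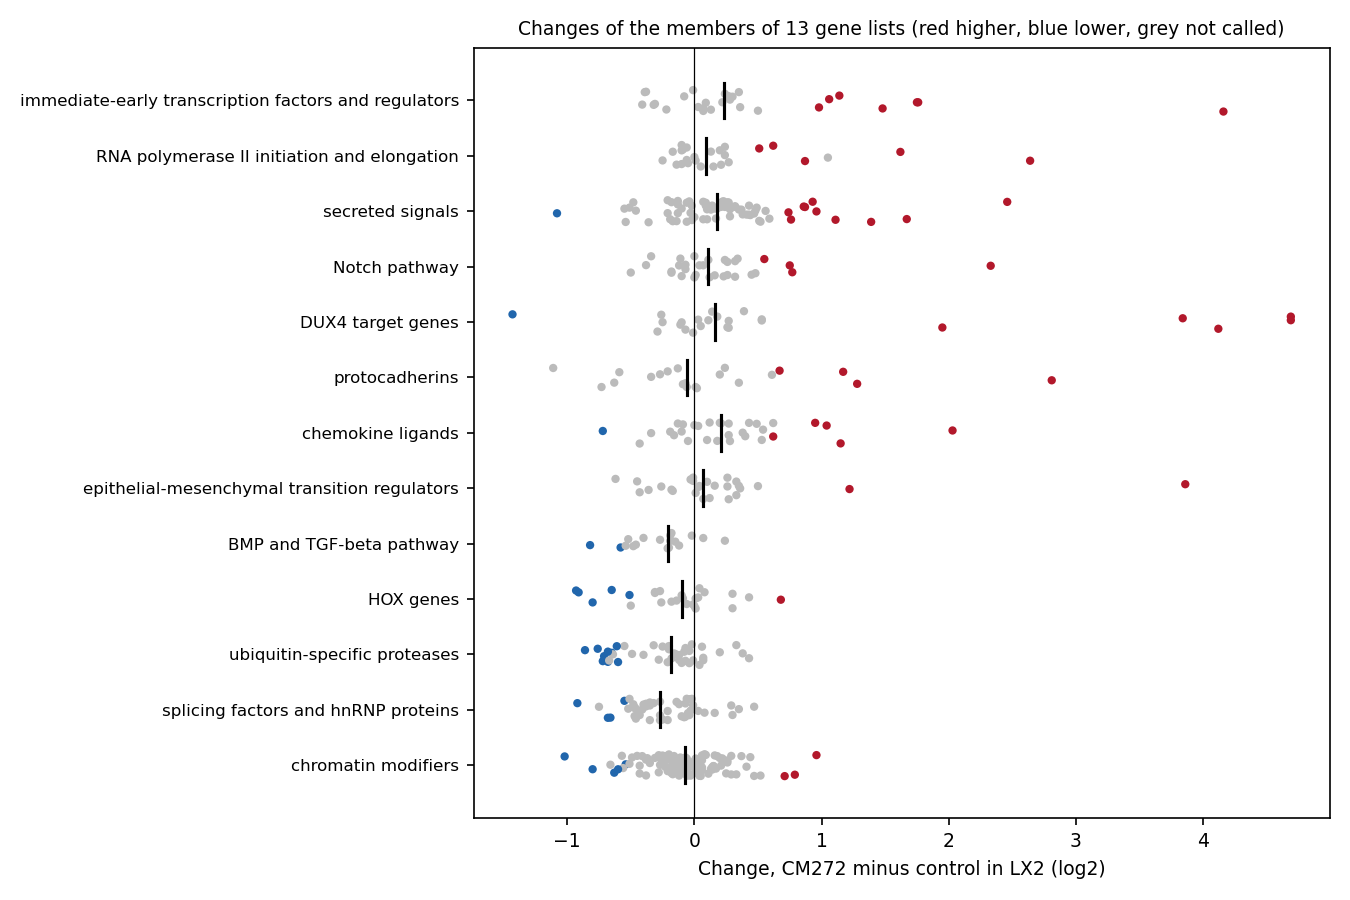
Change with CM272 in LX2 (log2, horizontal axis) of each tested member of 13 gene lists, with 1 point for each gene, red where higher, blue where lower and grey where not called, and a black bar at the list's median. The medians lie between -0.27 for splicing factors and 0.23 for immediate-early genes, while single members such as USP17L12 at 4.69 lie far from them.

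The falls reached less far than the rises. MIR4668, a miRNA gene, had the largest, from 6.76 and 6.78 in the control to 4.14 and 4.72 with CM272 (-2.34, SE 0.32, limma adjusted p = 0.00532). Its neighbour among the tested genes in RefSeq order, UGCG, which makes glucosylceramide, measured 10.73 and 10.68 against 9.26 and 9.78 and fell by 1.19. A probe set at a miRNA gene can read a host transcript, so the falls of MIR4668 and UGCG may not be separate observations. MEST, an imprinted hydrolase gene, measured 7.55 and 7.51 against 6.07 and 5.94, a fall of 1.52 (SE 0.13, limma adjusted p = 5.42e-04).

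Several other large falls differed between the CM272 arrays. PPA2, a mitochondrial pyrophosphatase, measured 5.64 and 5.73 in the control and 3.62 and 4.61 with CM272, and LRRC37B measured 6.09 and 6.15 against 3.94 and 5.33. The intronic transcript DIP2A-IT1 measured 5.53 and 6.09 against 3.42 and 4.95. In these 3 genes CM272 replicate 1 was much the lower. No treated array overlapped a control array, which held for all 567 lower genes. MIR4668, PPA2 and LRRC37B lost the call without either control array, and DIP2A-IT1 and UGCG without those or CM272 replicate 1. Over all 567 lower genes CM272 replicate 1 was the lower of the pair in 432 and replicate 2 in 135.

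MIR4267 fell by 1.67, MIR548C by 1.55, the pseudogene HNRNPA1P33 by 1.54 and MIR29A by 1.42. MIR4267 lost the call without either control array, and HNRNPA1P33 and MIR29A without those or CM272 replicate 1. Ranks 11 to 30 among the falls ran from ZBTB41 (-1.37), IPP (-1.36) and CMKLR2 (-1.36) to HERC4 (-1.17). Between them stood LOC100507412 (-1.32), LXN (-1.30), DTWD1 (-1.28), LINC01085 (-1.26), ZNF527 (-1.24), THEM4 (-1.24), DSG2 (-1.24), ZNF493 (-1.23), ZYG11B (-1.22), TMEM154 (-1.22) and IMPACT (-1.20). The remaining ones were MIRLET7F1 (-1.20), GPX8 (-1.19), GRAMD1C (-1.19), UGCG (-1.19) and MIR568 (-1.18). Stable among all falls were MIR548C, MEST, LOC100507412 and GRAMD1C.

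Among the rises, ranks 11 to 30 ran from GTF2B to EGR1. Those not yet described were MT1G, a metallothionein (2.24), RND1 (2.07), AADAC, an esterase of liver (2.00), MIR4421 (2.00), RNF122 (1.89), KRTAP4-8 (1.83), CRABP2, a retinoic acid carrier (1.82), GSTM3, a glutathione transferase (1.77) and LSMEM1 (1.76). LINC00161, the tenth largest rise, measured 3.12 and 3.69 in the control and 5.80 and 6.48 with CM272 (2.73, SE 0.25). MT1G and LSMEM1 lost the call without control replicate 2, and MIR4421 and KRTAP4-8 without either control array or CM272 replicate 2. RND1, AADAC, RNF122, CRABP2, GSTM3 and LINC00161 were stable. Of 8 tested metallothioneins MT1G was the 1 called, 12.5% against 8.42% of all genes, and MT1X changed by 0.84 and MT2A by -0.28.

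Retinoid handling genes are of interest because stellate cells store retinol. Of 7 tested members CRABP2, from 5.80 and 5.97 to 7.69 and 7.72, and BCO2, a carotenoid oxygenase (0.77, SE 0.18), rose and 0 fell. Of 17 lipid droplet genes 0 were called, with PNPLA2 at 0.59 and PLIN2 at 0.06. Over both groups 8.33% were called, near the 8.42% of all genes. BCO2 lost its call without either control array or CM272 replicate 2.

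HOX genes, which record position along the body axis, had 1 of 26 tested members higher and 5 lower, 23.1% against 8.42%, with a median of -0.09. HOXB4 measured 7.43 and 7.32 in the control and 6.43 and 6.45 with CM272, HOXB3 7.97 and 7.82 against 7.0 and 6.97, and HOXB2 9.06 and 9.14 against 8.46 and 8.15. HOXB2, HOXB3 and HOXB4 are neighbours on chromosome 17 and fell by 0.80, 0.91 and 0.93, and HOXB5 fell by 0.65 and HOXA2, named after its value was seen, by 0.51. HOXB6 to HOXB9, further along the cluster, changed by between -0.27 and -0.01 and were not called. HOXD1 rose by 0.68 (SE 0.13). All 6 calls were lost without either control array, those of HOXB4, HOXB5 and HOXA2 also without CM272 replicate 1 and that of HOXB2 without CM272 replicate 2.

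Ubiquitin-specific proteases other than the USP17 copies had 0 of 41 tested members higher and 9 lower, 22% against 8.42%, with a median of -0.18. USP12 measured 7.16 and 7.36 in the control and 6.12 and 6.68 with CM272, a fall of 0.86 (SE 0.19), and USP46 6.99 and 6.94 against 6.10 and 6.30, a fall of 0.76 (SE 0.14). USP25 fell by 0.72 and USP34 by 0.71. Splicing factors had 0 of 49 higher and 4 lower, 8.16%, near the 8.42% of all genes, with a median of -0.27. Among all genes tested the median change was -0.10 at a mean level of 7 to 8 and -0.17 over 9. How far level accounts for the medians of these lists, or of the BMP and TGF-beta list above, was not tested. HNRNPR, an RNA-binding protein, measured 9.37 and 9.39 against 8.25 and 8.66 and fell by 0.92 (SE 0.16). All 5 falls named here were lost without either control array, those of USP12 and USP25 also without CM272 replicate 1.

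The drug's target genes did not pass the test. EHMT2 measured 7.51 and 7.62 in the control and 7.72 and 7.44 with CM272, EHMT1 7.30 and 7.19 against 7.33 and 7.04, and DNMT1 9.46 and 9.44 against 9.78 and 9.59. Their changes were 0.02 (SE 0.16), -0.06 (SE 0.15) and 0.24 (SE 0.14). The arrays overlapped for EHMT2 and EHMT1, and the sign of the EHMT2 change turned negative with median centring (-0.05) and that of EHMT1 positive with quantile normalization (0.02).

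Of 112 tested chromatin modifiers 3 rose and 5 fell, 7.14%, close to the 8.42% of all genes. The demethylases KDM7A and KDM6B rose by 0.96 (SE 0.24) and 0.71 (SE 0.18), and the deacylase SIRT4 by 0.79. CBX3, the heterochromatin protein HP1-gamma that reads the mark G9a makes, measured 8.27 and 8.24 in the control and 6.93 and 7.54 with CM272, a fall of 1.02 (SE 0.20). ZBTB33, the methyl-DNA reader Kaiso, measured 6.74 and 6.69 against 5.85 and 5.99, a fall of 0.80 (SE 0.13). The calls of these 5 genes were lost without either control array, that of KDM6B also without CM272 replicate 1 and those of KDM7A and SIRT4 without CM272 replicate 2.

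Of 561 tested miRNA genes 21 were higher and 23 lower, 7.84% against 8.42%, with a median of 0.02. A miRNA pairs with its targets through the seed, bases 2 to 8 of the mature strand, and represses them. The probe sets lie at miRNA genes and read the precursor or a host transcript, so they do not measure the mature miRNA. Of the 44 called genes 41 have a mature sequence in the RefSeq table, and the mature strands below show the shared seed of the let-7 genes that fell and the seeds of other called miRNA genes, in capitals.

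hsa-let-7a-5p: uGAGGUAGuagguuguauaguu
hsa-let-7f-5p: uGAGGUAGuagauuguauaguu
hsa-let-7i-5p: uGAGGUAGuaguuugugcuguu
hsa-miR-29a-3p: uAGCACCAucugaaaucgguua
hsa-miR-27b-3p: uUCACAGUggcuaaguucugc
hsa-miR-30e-5p: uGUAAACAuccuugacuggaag
hsa-miR-544a: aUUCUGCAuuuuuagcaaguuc
hsa-miR-382-5p: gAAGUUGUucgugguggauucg

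The let-7 family, which restrains growth and the fetal gene programme, was looked at after its values were seen. Of its 8 tested genes 3 were lower and 0 higher, beside 4.63% and 3.79% of all genes tested. MIRLET7I measured 6.05 and 6.08 in the control and 4.98 and 5.16 with CM272 (-0.99, SE 0.15), MIRLET7F1 4.86 and 4.69 against 3.06 and 4.11 (-1.20, SE 0.29), and MIRLET7A1 5.01 and 4.73 against 4.09 and 4.08 (-0.78, SE 0.19). MIRLET7A1 and MIRLET7F1 are neighbours in RefSeq order, so they may not be separate observations. They also share the seed UAUACAA of their 3p strands. MIR29A, whose product represses collagen genes in stellate cells, measured 7.25 and 7.57 against 5.92 and 6.08, a fall of 1.42 (SE 0.29). MIR27B fell by 0.92 (SE 0.17) and MIR30E rose by 0.95 (SE 0.22). All 6 of these calls were lost without either control array, those of MIR29A, MIRLET7F1 and MIR30E also without CM272 replicate 1 and that of MIRLET7A1 without each CM272 array.

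Called miRNA genes on chromosome 14 lay together, in the imprinted region between DLK1 and DIO3, which was chosen after the values were seen. Of 32 tested miRNA genes there 8 were higher and 0 lower, and 24 had a positive change, with a median of 0.36. Of the 529 other miRNA genes 13 were higher and 23 lower, with a median of 0.01. MIR544A measured 4.93 and 4.48 in the control and 6.02 and 6.37 with CM272, a rise of 1.49 (SE 0.21), and MIR382 measured 5.50 and 5.17 against 6.14 and 6.33, a rise of 0.90 (SE 0.19).

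MEG3, the long non-coding RNA of the region's maternal copy, measured 6.51 and 6.42 against 7.08 and 7.02, a rise of 0.58. DLK1 and RTL1, from the paternal copy, changed by 0.07 and 0.14 and were not called. MIR544A lost its call without control replicate 2, MIR382 without either control array, and MEG3 without those or CM272 replicate 1. The miRNAs of the region are made from long shared transcripts, so neighbours are not separate observations. In HepG2 only 1 of all genes tested was called, and no gene of the region had a called difference between the lines, the lowest limma adjusted p being 0.0798 for MIR382.

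**Figure D5:**
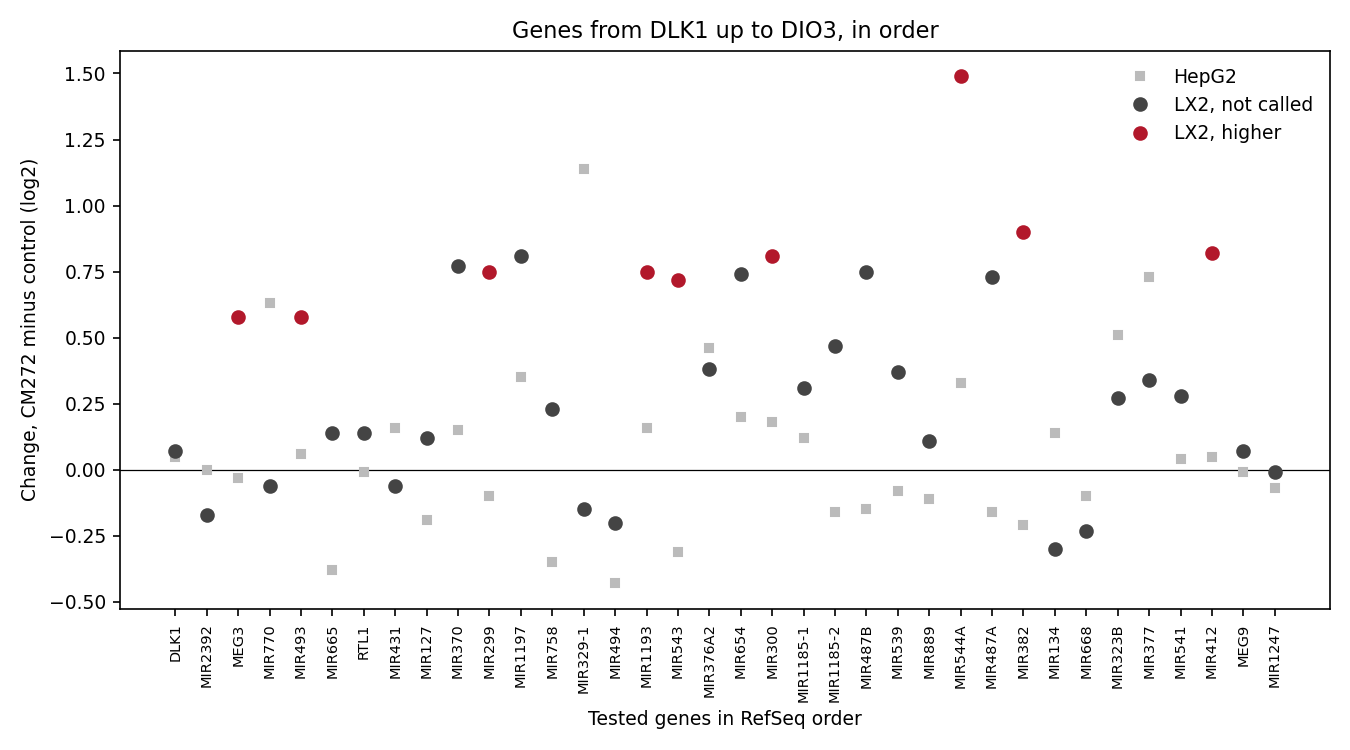
Change with CM272 (log2, vertical axis) of the 36 tested genes between DLK1 and DIO3, in RefSeq order, with circles for LX2 (red where higher, dark where not called) and grey squares for HepG2. The LX2 values reach 1.49 at MIR544A and are positive for 24 of the 32 miRNA genes.

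Other non-coding genes were called in both directions. Of 326 tested antisense RNAs 21 rose and 3 fell, 7.36% against 8.42%, with a median of 0.09. SLC7A11-AS1 measured 3.59 and 3.52 in the control and 5.26 and 5.87 with CM272, and HECTD2-AS1 rose by 1.68 (SE 0.21), both stable. CFLAR-AS1 rose by 1.43 and RPL26L1-AS1 by 1.16, and LOXL1-AS1 fell by 0.79. Of 243 long intergenic RNAs 11 rose and 6 fell, 7% against 8.42%, with LINC00161 and LINC00624 (1.53) the largest rises and LINC01085 and LINC00842 (-1.15) the largest falls. CFLAR-AS1, LOXL1-AS1 and LINC00624 lost the call without either control array, and RPL26L1-AS1 and LINC00842 without control replicate 2. No source used here tells whether the labelling keeps the strand, and an antisense RNA and its partner may not be told apart.

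The change in LX2 differed from that in HepG2 for 145 genes, 1.18% of those tested, by limma's test of the difference. In 101 the LX2 change was the higher and in 44 the lower. Of the 145, 134 were among the genes called in LX2, 91 of its rises and 43 of its falls. The LX2 change is part of the difference, so this overlap is partly built in. HepG2 was kept in 10% serum and LX2 in 2%, so line and serum cannot be told apart. Leaving out 1 LX2 array gave between 19 and 961 such genes, and 17 differed without each of the 4, all with the LX2 change the higher.

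The 5 largest differences upward were those of TEX14 (5.61, SE 0.33), USP17L12 with USP17L9P (4.64, SE 0.24), FOSB (4.18, SE 0.21) and ZNF280A (4.15, SE 0.23). FOSB measured 5.12 and 4.88 in the HepG2 control and 5.01 and 4.94 with CM272, so the HepG2 arrays overlapped. Those of LX2 did not, as for all 464 higher genes. EGR1 rose in LX2 while its HepG2 levels were 9.06 and 9.22 in the control and 8.66 and 7.94 with CM272 (difference 2.59, SE 0.33, limma adjusted p = 0.00868). RELN started from 11.03 and 11.12 in the HepG2 control and reached 11.31 and 11.40, a difference between the lines of 3.65.

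The 5 largest downward were those of MIR4668 (-2.94, SE 0.46), SQLE (-1.76, SE 0.22), HOXB4 (-1.76, SE 0.26), MIR548C (-1.64, SE 0.26) and MBOAT1 (-1.61, SE 0.26). SQLE, squalene epoxidase of cholesterol synthesis, measured 9.67 and 9.83 in the LX2 control and 8.54 and 8.64 with CM272, against 7.87 and 7.88 and then 8.30 and 8.64 in HepG2. DLL4 rose in LX2, but its difference from HepG2 did not pass (1.75, SE 0.37, limma adjusted p = 0.0598). TEX14, the USP17L12 pair, FOSB and ZNF280A were among the 17 differences that held without each LX2 array, and the 5 downward ones were not.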

How the data were processed

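Total RNA of 8 samples of 2 cell lines was hybridised to Affymetrix whole-transcript arrays, 300 ng each. Per the submitters' processing notes, the deposited log2 values were made by the authors with RMA, whose version is not given in the sources used here; nor is the array's genome build. Of 48416 probe sets 16098 (33.2%) carry 1 gene symbol in GEO's platform annotation, all matched to a current RefSeq record, and none carries several. Each of 14884 symbols was read from its brightest probe set, judged by the mean of all 8 arrays, and 12239 of them had log2 over 4 on both arrays of at least 1 group. The number of arrays, 2 in each group, limits the precision, and an exact permutation of 2 arrays against 2 cannot go below p = 0.333.

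limma 3.58.1 in R 4.3.3 fitted a mean for each of the 4 groups over all 8 arrays, so that they share 1 estimate of spread (4 residual and 5.47 prior degrees of freedom). The contrasts were CM272 minus control in LX2 and that change minus the same change in HepG2. P-values were two-sided and Benjamini-Hochberg adjusted over all 12239 genes. The fit was run on simulated data in which all 8 arrays of a gene had the same spread. That setting differs from LX2, where the CM272 arrays lay a median of 0.26 apart and the control arrays 0.12. The simulation therefore does not test whether the groups can share 1 estimate of spread. Promoters and mature miRNAs came from RefSeq tables (GRCh38.p14), and gene order from RefSeq genes of the same assembly. Promoters of 9209 tested genes matched by symbol; none was found for TEX14 or SNAI1.

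The named genes are the 10 largest rises and falls whose arrays do not overlap, ranks 11 to 30 by name, up to 4 called members of each list each way (or up to 2 uncalled ones as values where none was called), the 5 largest differences from HepG2 each way, and EHMT2, EHMT1 and DNMT1. Others are named as background values of a list. The members, lists and tests were chosen with earlier results of these data known. A gene list is described by counts and its median, without a test of the list. Families are held only in part by the named probe sets. Alternatives were other filters, normalizations, spread models and probe sets, and leaving out each LX2 array. One of the gene lists is not reported here.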

Additional observations from a re-analysis of the deposited data

Results flagged for a closer look

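For 58 of the named genes the CM272 effect in LX2 differed from that in HepG2, by limma's test of the difference with an adjusted p under 0.05. Of all genes tested 1.18% differed. Most named genes were picked for a large or called LX2 change, which is part of this difference, or for the difference itself. The count and its split therefore partly follow from that choice. The values in brackets are the LX2 change minus the HepG2 change, in log2, and 43 were positive and 15 negative. The largest positive differences were those of TEX14 (5.61), USP17L12 (4.64), USP17L9P (4.64), FOSB (4.18), ZNF280A (4.15), SNAI1 (4.04), USP17L15 (3.72), RELN (3.65) and LINC00161 (2.85). Next in size came GTF2B (2.79), EREG (2.65), PCDH10 (2.61), EGR1 (2.59), OASL (2.50), NPPC (2.46), CCL20 (2.35), ATF3 (2.35) and RND1 (2.32). These were followed by SEPTIN4 (2.25), PTGS2 (2.17), SLC7A11-AS1 (2.15), LINC00624 (2.09), RNF122 (1.93), CLDN1 (1.84), BAIAP2 (1.84), HECTD2-AS1 (1.76) and PCDH17 (1.70). Further positive differences were those of HEXIM1 (1.65), RRP12 (1.63), DKK2 (1.58), GSTM3 (1.54), ELL (1.5), SOX3 (1.44), KLF5 (1.42), PCDH18 (1.42) and MIR7-3HG (1.36). The smallest were those of ZNF622 (1.34), KDM6B (1.31), RGS16 (1.29), STC1 (1.29), MIR3143 (1.28), GPR83 (1.10) and HOXD1 (0.98).

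On the negative side stood ZNF493 (-1.13), SLC66A3 (-1.14), LOX (-1.17), GRAMD1C (-1.23), MEST (-1.28), LINC00842 (-1.35), LOC100507412 (-1.37) and ZYG11B (-1.41). The larger negative differences were those of LXN (-1.45), IPP (-1.49), MBOAT1 (-1.61), MIR548C (-1.64), HOXB4 (-1.76), SQLE (-1.76) and MIR4668 (-2.94). In EREG, ELL, EGR1, KLF5 and KDM6B the HepG2 change was -1.54, -0.87, -0.84, -0.73 and -0.61, while LX2 rose. Only 1 of all genes tested was called in HepG2, so most of these HepG2 falls were not called.

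Probe sets without a gene symbol were left out of the comparison. In a fit of all probe sets, named or not, 502 of the 17658 unnamed ones were higher with CM272 in LX2 and 372 lower, 4.95%, against 5.06% of the 13151 named ones in the same fit. Their transcripts were not analysed here.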

How the results depend on the processing

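The counts in LX2, 464 higher and 567 lower, rest on 2 arrays in each group. Without each LX2 array in turn the higher genes numbered 51 to 906, the lower genes 5 to 1587 and the genes that differ from HepG2 19 to 961. With LX2 alone the counts were 132 and 66, with array quality weights 139 and 144, and with all probe sets, named or not, 820 were higher. The 145 genes that differ from HepG2 became 79 with no filter, 371 with the filter at log2 6, 286 with a trended and robust prior, and 265 with all probe sets. The cause was not tested. The labels do not say whether a replicate number marks a shared culture or day. The deviations of same-numbered arrays correlated at 0.08 in LX2, which cannot settle this. With the replicate number as a replicate block 361 were higher, 446 lower and 71 differed from HepG2. No named gene that was called changed sign under any setting run. Among the uncalled targets the change of EHMT2 turned to -0.05 with median centring, and ran from -0.12 without CM272 replicate 1 to 0.16 over the single-array leave-outs, negative (-0.04) also without control replicate 1. That of EHMT1 turned to 0.02 with quantile normalization and ran from -0.21 to 0.09 over the leave-outs, positive without CM272 replicate 2.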

Other observations

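Genes outside the lists were looked at after their values were seen, and are given as values only. Of 6 tested stress ligands that NK cells read through NKG2D 2 were called in LX2, beside 8.42% of all genes tested. ULBP1 measured 6.23 and 6.02 in the control and 7.79 and 7.25 with CM272 (1.39, SE 0.27). MICB measured 8.77 and 8.84 against 9.97 and 10.25 (1.30, SE 0.17). ULBP2 changed by 1.04 (limma adjusted p = 0.113), MICA by 0.39, RAET1E by 0.34 and ULBP3 by 0.19, none called. CXCR4, the receptor of CXCL12, measured 4.05 and 4.22 against 5.84 and 5.90, and OLR1, a scavenger receptor for oxidised LDL, 3.94 and 3.94 against 5.37 and 5.40. PEG10, an imprinted gene derived from a retrotransposon, measured 8.20 and 8.25 in the control and 9.33 and 9.64 with CM272, a rise of 1.26 (SE 0.15). CXCR4, OLR1 and PEG10 were called without each LX2 array, MICB lost its call without either control array, and ULBP1 without those or CM272 replicate 1.

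Vault RNAs, small RNAs of a large cytoplasmic particle, gave 1 call among 2 tested, beside 8.42% of all genes tested. VTRNA1-1 measured 3.35 and 2.92 in the control and 4.37 and 4.45 with CM272 (1.27, SE 0.22), and VTRNA1-3 5.84 and 5.41 against 6.75 and 6.34 (0.92, SE 0.25, limma adjusted p = 0.0552). VTRNA1-1 lost its call without control replicate 2.

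Over all 12239 tested genes 71 runs of 2 or more neighbours in RefSeq order were called in 1 direction, 7 of them of 3 or more genes. The longest held 4 genes, from PCDH10 to NOCT and among the USP17L copies, which are not separate results. Some short runs, such as UGCG with MIR4668 or MIRLET7A1 with MIRLET7F1, may not be separate observations either. Of all genes tested 3.79% were higher and 4.63% lower, and how many runs those shares alone would give was not tested.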
